A study of Mus musculus with 15 samples.

Results

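The 231 genes described here had a normalised read count at least 1.8 times higher 6 h after auxin than before it in ESCs whose only Oct4 protein carries an auxin-inducible degron. They were taken from the 16772 genes of the deposited normalised table by 2 values, a 6 h count of at least 50 and a 6 h to 0 h ratio of at least 1.8. Both thresholds were passed by 240 genes, and 9 of them were set aside by name because they belong to the aryl hydrocarbon receptor battery, the genes that this ligand-activated transcription factor switches on, or were grouped with it. The genes were thus selected on the measured 6 h and 0 h counts of 1 cell line, and their 6 h ratios are given as a description without a test.

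Oct4, encoded by *Pou5f1*, is the POU-family transcription factor that holds ESCs in the pluripotent state. In the degron system the plant F-box protein Tir1 binds the AID tag once indole-3-acetic acid (IAA, an auxin) is added, and the tagged protein is sent to the proteasome within a short time. Deletion of the gene with Cre recombinase is slower, since mRNA and protein made before the deletion have to decay. Transcripts that are higher soon after loss of a regulator can come from its direct targets, from later steps or from the drug itself, and a time course orders them without assigning a cause.

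RNA was sequenced from both systems after depletion of ribosomal RNA. The O4AID cells (strain 129SV) were Oct4-/- with a TetOFF Oct4 transgene, kept silent by doxycycline in all 5 libraries, plus Oct4AID and Tir1, each driven by the CAG promoter and integrated by piggyBac. They received 500 µM IAA and gave 1 library each after 0, 1.5, 6, 10 and 24 h. The CreER cells (mixed 129SV and C57BL/6 strain) were Oct4Fl/- with a β-geo null allele and a tamoxifen-activated Cre driven by CAG. They received 500 nM 4-hydroxytamoxifen (4-OHT) and gave 2 replicate libraries each after 0, 12, 18, 24 and 36 h. The labels give 1 medium for all cells, N2B27 with PD03 (a MEK inhibitor), Chiron (a GSK3 inhibitor) and mLIF, on gelatin. The study's text, however, describes a switch to serum medium with LIF when 4-OHT was added for its measurements of Oct4 decay in Oct4Fl/- cells, and whether the sequenced CreER cells were switched is not given in the sources used here.

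The libraries held 21655083 to 30774618 reads in genes in CreER and 40537353 to 48719670 in O4AID, and a normalised count of 50 at 6 h stood for about 63.2 reads. Normalised counts are not divided by transcript length, so they are compared here between libraries and not between genes. *Pou5f1* was between 3687 and 4113 at 36 h in CreER against 10564 and 10714 at 0 h, and between 20176 and 26845 in the 5 O4AID libraries, where the deposited counts include the transgene transcript and the drug acts on the protein. The 8 naive ESC markers checked were detected in all 15 libraries. Markers of fibroblast feeders summed to between 81.4 and 156 in O4AID and between 268 and 315 in CreER over the 4 of 6 genes in the table, with *Col3a1* at 0 in 4 O4AID libraries. *Cyp1a1*, the classical target of the aryl hydrocarbon receptor, had counts of 23.0, 353, 2422, 5615 and 9300.0 over the 5 O4AID libraries in order of time. Some genes that respond to ERK, picked as examples and not counted over a list, differed between the lines before any drug. *Spry4*, a feedback inhibitor of receptor kinase signalling, was at 6512 and 6256 in CreER against 60.04 in O4AID, *Dusp6*, an ERK phosphatase, at 4306 and 4383 against 242, and *Myc* at 808 and 822 against 0.70. The 15 libraries analysed here include none from cells that received IAA without degron-tagged Oct4, so an effect of IAA and an effect of losing Oct4 cannot be told apart in O4AID. Outside these libraries, the study gave IAA to ESCs with a degron-tagged eGFP. For the pluripotency and trophectoderm genes it measured there by qRT-PCR, it reported that IAA was not the cause of the changes.

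The 231 genes were a broad collection rather than 1 pathway. From textbook knowledge, 174 of them were placed in 11 function classes after the genes were known, and 57 were left without a class. Their 6 h counts ran from 50.6 to 11853, with a median of 129 from 163 reads. The 6 h to 0 h ratio had a median of 2.14 and a highest value of 8.43, and it reached 3 for only 27 genes. For every one of the 231 genes the exact 95% interval of the 6 h to 0 h ratio, from the reads of the 2 libraries and covering counting error only, lay above 1. The rule used the same 2 libraries, and its thresholds on count and ratio fixed this outcome in advance. Just inside the ratio threshold were *Shc2* (128 against 71.2 at 0 h), *Csrnp3* (64.1 against 35.6) and *Traf5* (98.1 against 54.5), and just outside it *Gprin3* (94.2 against 52.4), *Ggt1* (450.3 against 250.6) and *Usp51* (83.9 against 46.8). Just inside the threshold on the 6 h count were *Gata2* (50.6), *Gm5091* (50.6) and *Aff3* (50.6), and just outside it *Mansc4* (49.9), *Shox2* (49.9) and *Cavin3* (49.1).

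The largest 6 h ratio was that of *Nags* (ENSMUSG00000048217, chromosome 11, 102145513 to 102149477, GRCm38), which encodes N-acetylglutamate synthase, the enzyme that makes the activator of the urea cycle. Its normalised counts in O4AID were 11.2, 43.5, 94.2, 146 and 82.1 after 0, 1.5, 6, 10 and 24 h. *Rbm24*, an RNA-binding regulator of splicing in muscle, had counts of 11.2, 11.05, 76.8, 107 and 73.1 after 0, 1.5, 6, 10 and 24 h, and was level for the first 1.5 h. *Gadd45g*, a growth arrest and stress gene, had 39.1, 105, 264, 292 and 362 after 0, 1.5, 6, 10 and 24 h, with each library above the one before. *Mogat2*, a monoacylglycerol acyltransferase of fat absorption, showed the same order of libraries, from 23.0 at 0 h to 450.2 at 24 h.

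The other genes among the 10 largest ratios took different courses after 6 h. *Fhdc1*, a formin, had counts of 102, 137, 521, 616 and 719 after 0, 1.5, 6, 10 and 24 h. *Mobp*, a myelin protein gene, had 11.9, 50.8, 57.8, 111 and 257 after 0, 1.5, 6, 10 and 24 h, so that most of its increase in counts came after 6 h. *Gem*, a small GTPase that inhibits calcium channels, had 27.2, 50.1, 129.8, 71.7 and 26.4 after 0, 1.5, 6, 10 and 24 h, and the 24 h library was back at the level of the 0 h library. *Syt13*, a synaptotagmin, stayed between 101 and 117 from 6 to 24 h against 24.4 at 0 h, and *Trim50*, a ubiquitin ligase of the TRIM family, between 49.1 and 74.5 against 12.6. *Il4ra*, the alpha subunit of the interleukin-4 receptor, had 27.9, 47.1, 125, 155 and 244 after 0, 1.5, 6, 10 and 24 h.

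In CreER the 8 of these 10 genes that could be tested had smaller fold changes at 36 h than in O4AID at 6 h. The 10 were ranked on that same O4AID ratio, and this choice by itself favours smaller changes elsewhere. How much of the difference comes from the choice was not tested. *Nags* had normalised counts of 9.12 and 12.1 at 0 h, 17.0 and 16.1 at 12 h, 6.28 and 21.4 at 18 h, 25.1 and 18.7 at 24 h, and 23.1 and 29.8 at 36 h, and rose by 36 h (log2 fold change 1.29 ± 0.45 (SE), adjusted p = 0.024, edgeR quasi-likelihood test with Benjamini-Hochberg adjustment over the 18969 genes tested, as for all CreER values), a call lost without 0 h replicate 1 (1.12), 0 h replicate 2 (1.52) or 36 h replicate 2 (1.12). *Gadd45g* had 241 and 219 at 0 h, 239.5 and 239.7 at 12 h, 258 and 269 at 18 h, 280.4 and 286 at 24 h, and 402 and 494 at 36 h, so that CreER cells at 0 h were close to the 264 of O4AID cells at 6 h. It rose at 24 h (log2 fold change 0.32 ± 0.11, adjusted p = 0.045) and at 36 h (0.98 ± 0.11, adjusted p = 3.6e-08). *Mogat2* went from 61.2 and 59.5 (0 h) to 208 and 188 (36 h), and *Mobp* from 82.1 and 94.7 (0 h) to 239 and 234 (36 h). Both rose, with log2 fold changes of 1.74 ± 0.17 (adjusted p = 4.2e-09) and 1.43 ± 0.14 (adjusted p = 5.4e-09). *Fhdc1* and *Syt13* rose as well, by 0.84 ± 0.20 and 0.88 ± 0.10 on the log2 scale. *Gem* and *Il4ra* did not pass the test, with 36 h log2 fold changes of 0.61 ± 0.32 and 0.34 ± 0.28. *Rbm24* and *Trim50*, at 18.0 and 12.8 or below in the CreER libraries, were too low to be tested.

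**Figure D1:**
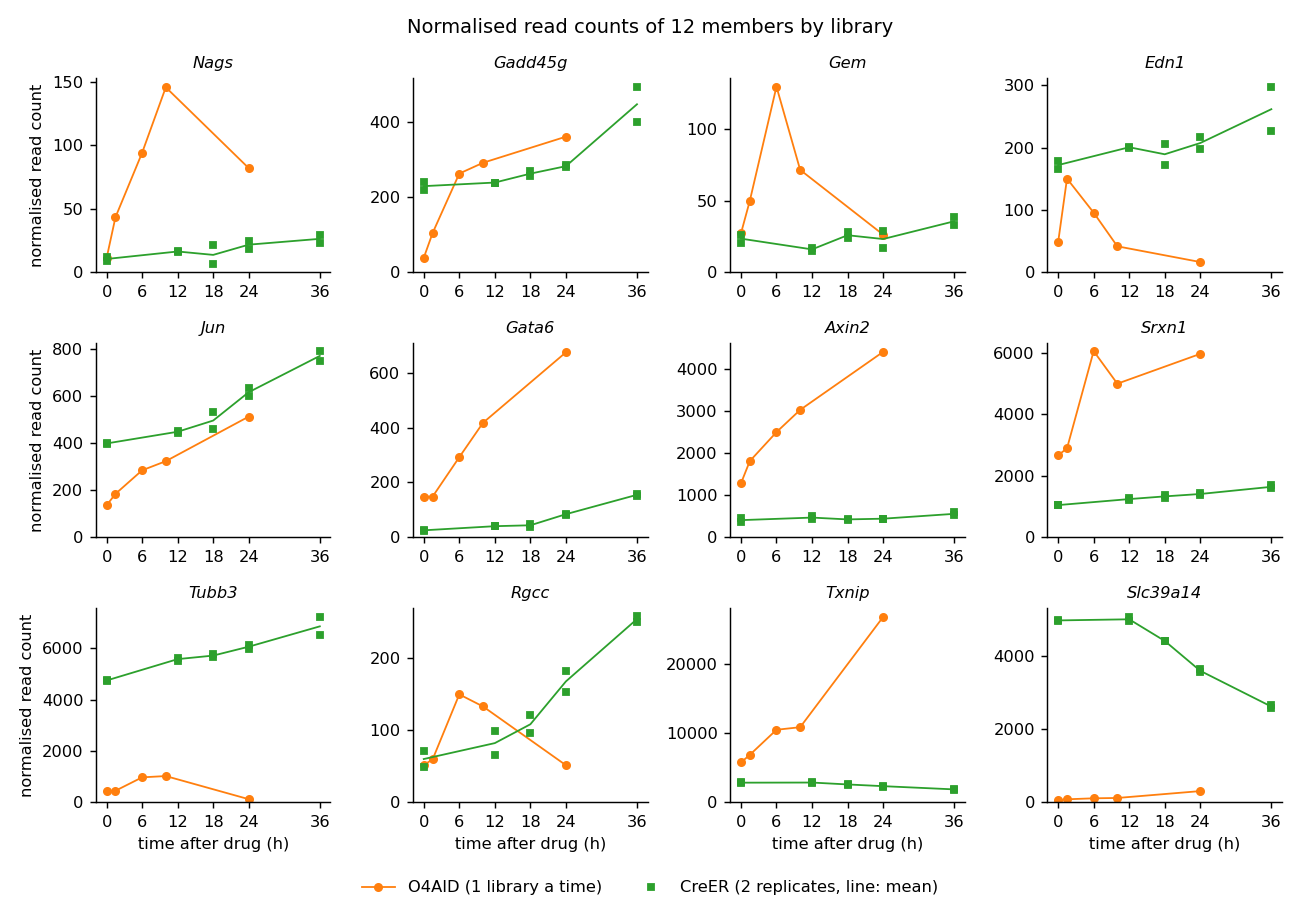
Normalised read counts (vertical axis, from 0) against hours after IAA or 4-OHT for 12 of the 231 genes. Orange points are the single O4AID libraries, green squares the 2 CreER replicates of each time and the green line their mean. *Gem* and *Edn1* are highest at 6 h and 1.5 h in O4AID, while *Gata6*, *Axin2* and *Txnip* are highest at 24 h.

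The bases before the start of 5 genes are shown because they hold letters of 2 well-known motifs. RefSeq promoters on GRCm38.p6, running from 250 bases before to 50 after a start, were matched for 168 of the 231 genes. The octamer ATGCAAAT, the motif that POU factors such as Oct4 bind, was found on either strand in 5 of the 168 (2.98%), against 161 of the 9696 table genes with a promoter and a 6 h count of at least 50 (1.66%) and 570 of all 32851 promoters (1.74%). The 4 of them that are among the genes given in full here are *Gadd45g* (chr13:51846425-51846674, plus strand), *Il4ra* (chr7:125552021-125552270, plus strand), *Egln3* (chr12:54203875-54204124, minus strand) and *Slc7a11* (chr3:50443614-50443863, minus strand). The fifth is *Oas1h*. The letters begin 103, 139, 179 and 49 bases before the start, and in the 250 bases printed 5′ to 3′ on the gene's strand the capitals mark them.
Gadd45g: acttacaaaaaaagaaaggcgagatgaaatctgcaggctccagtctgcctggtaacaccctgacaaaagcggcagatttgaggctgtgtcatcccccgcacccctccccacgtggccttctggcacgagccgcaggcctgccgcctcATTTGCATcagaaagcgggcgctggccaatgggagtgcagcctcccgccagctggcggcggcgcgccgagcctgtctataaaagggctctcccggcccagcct
Il4ra: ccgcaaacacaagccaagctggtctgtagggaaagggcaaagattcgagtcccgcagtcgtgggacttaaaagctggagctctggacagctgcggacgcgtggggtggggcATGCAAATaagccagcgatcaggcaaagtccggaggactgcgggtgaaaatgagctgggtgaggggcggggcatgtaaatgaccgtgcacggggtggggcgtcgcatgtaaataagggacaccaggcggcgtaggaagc
Egln3: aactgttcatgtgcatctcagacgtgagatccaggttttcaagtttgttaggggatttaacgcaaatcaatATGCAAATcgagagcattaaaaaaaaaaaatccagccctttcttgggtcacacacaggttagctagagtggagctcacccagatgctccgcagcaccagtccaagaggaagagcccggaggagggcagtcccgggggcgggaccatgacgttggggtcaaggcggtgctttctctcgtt
Slc7a11: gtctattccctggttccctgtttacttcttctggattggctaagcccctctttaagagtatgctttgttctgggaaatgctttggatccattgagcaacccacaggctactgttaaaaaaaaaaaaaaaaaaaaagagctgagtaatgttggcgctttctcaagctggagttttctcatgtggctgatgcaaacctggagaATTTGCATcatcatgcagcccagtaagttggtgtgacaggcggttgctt

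*Srxn1*, the sulfiredoxin gene (chr2:152105274-152105523, plus strand), is shown for its pair of matches to the AP-1 letters TGANTCA, 102 and 45 bases before the start, a motif read by Fos and Jun and contained in many antioxidant response elements.
Srxn1: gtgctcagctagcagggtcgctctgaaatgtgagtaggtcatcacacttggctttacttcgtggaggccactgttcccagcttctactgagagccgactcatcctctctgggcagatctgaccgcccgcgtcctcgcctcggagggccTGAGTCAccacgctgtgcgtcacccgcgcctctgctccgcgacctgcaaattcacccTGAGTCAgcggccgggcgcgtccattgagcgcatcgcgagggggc

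Matches to the other motifs were counted in the same way. The AP-1 letters were in 13 of 168 promoters (7.74%, against 5.60% of the table genes), and the aryl hydrocarbon receptor core GCGTG in 83 (49.4%, against 56.8%). The TEAD letters GGAATG were in 21 (12.5%, against 14.1%), the E-box CACGTG in 18 (10.7%, against 12.1%), the TATA box TATAAA in 14 (8.33%, against 8.27%) and the cyclic AMP response element TGACGTCA in 4 (2.38%, against 3.70%). Both strands were read, none of these motifs contains another although matches may share bases, and a match is a description of letters and not of a bound site.

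In O4AID the set as a whole moved early and then spread out. The median change from 0 h, on the log2(value + 1) scale, was 0.33, 1.08, 1.26 and 1.38 after 1.5, 6, 10 and 24 h, with medians within 0.01 of 0 over the genes with a count of 50 or more at either time. At 1.5 h, 195 of 231 genes were above and 36 below the 0 h library, which the rule also used, and 17 were already at 1.8 times 0 h, against 0.232% of all genes with a count of 50 or more at either time, the base of each such share below. These 17 were *Nags*, *Gadd45g*, *Mobp*, *Gem*, *Aqp8*, *Timp3*, *Trpm6*, *Rap1gap2*, *Msx2*, *Tbx5*, *Filip1l*, *Gm13571*, *Gm42900*, *Defb42*, *Edn1*, *Gata2* and *Traf5*. The share at 1.8 times 0 h was 189 of 231 at 10 h (3.88% of all genes, with 2.75% past the reverse ratio) and 166 at 24 h (10.1%, reverse 6.59%), and 150 genes were past it at 6, 10 and 24 h.

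The libraries at 1.5, 10 and 24 h played no part in the choice, and among them the difference is free of the 0 h and 6 h values. Between 1.5 and 10 h, 134 of 231 genes were at least 1.8 times higher at 10 h, against 3.23% of all genes, and 1 gene, *Edn1*, was at least 1.8 times lower, against 2.12%. The median change was 0.96, with a counting interval above 1 for 194 genes and below 1 for 3. The share of all genes with such an interval was not computed, so the interval counts have no comparison. *Rbm24* (9.69-fold, 95% interval 5.67 to 17.8), *Pcp4l1* (6.65-fold, 4.64 to 9.81), *Mogat2* (5.82-fold, 4.36 to 7.89) and *Zfp36l3* (5.71-fold, 4.62 to 7.11) differed most. These intervals cover the counting of reads in 1 library per time and not the spread between cultures.

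Between 1.5 and 24 h, 136 were at least 1.8 times higher (9.28%) and 14 at least 1.8 times lower (6.01%). Between 10 and 24 h the genes parted. The median change was 0.09, and 42 genes were at least 1.8 times higher at 24 h (4.70% of all genes) while 31 were at least 1.8 times lower (3.21%). The 24 h library was the highest of the 5 for 114 genes, the 10 h library for 61, the 6 h library for 54 and the 1.5 h library for 2, which were *Edn1* and *Traf5*. At 24 h, 24 genes were below their 0 h value, 8 of them at 1/1.8 of it or less.

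*Frem2*, an extracellular matrix protein of basement membranes, was the gene furthest above 0 h at 24 h, with counts of 53.8, 60.4, 149, 229 and 1768 after 0, 1.5, 6, 10 and 24 h. *Txnip*, which restrains glucose uptake and binds thioredoxin, had 5781, 6889.9, 10520.5, 10895 and 26859.8 after 0, 1.5, 6, 10 and 24 h, so that its largest step came after 10 h. *Lin28a*, an RNA-binding protein that blocks let-7 processing, went from 77.5 at 0 h to 1489 at 24 h. *Cidea*, a lipid droplet protein, had 1587, 1726, 3668, 5867 and 8841 after 0, 1.5, 6, 10 and 24 h, and *Arrb1*, a beta-arrestin, 468, 499, 894, 1404 and 2749 after 0, 1.5, 6, 10 and 24 h. In all of these the 24 h library stood above each earlier one.

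The opposite course was that of *Tubb3*, the neuronal beta-tubulin. Its O4AID counts were 430.0, 452, 974, 1024 and 125 after 0, 1.5, 6, 10 and 24 h, with 6 and 10 h above the other libraries and 24 h below them. The 3 neural markers in the table, *Tubb3* included, summed to 824, 1313 and 597 after 0, 6 and 24 h in O4AID. This course was that of *Tubb3* alone, which the rule selected for its 6 h value. Without it the other neural markers together were lower at 6 h and higher at 24 h than at 0 h. In bulk RNA more cells of a type and more RNA per cell cannot be told apart. *Edn1*, the endothelin-1 ligand, had 48.2, 150.2, 95.8, 41.9 and 16.7 after 0, 1.5, 6, 10 and 24 h, a peak at 1.5 h and a value at 24 h of 0.399 times 10 h (95% interval 0.235 to 0.659). *Aldh1a3*, an enzyme of retinoic acid synthesis, had 225, 298, 709.9, 473 and 193 after 0, 1.5, 6, 10 and 24 h. *Sstr5*, a somatostatin receptor, had 171, 205, 457, 245 and 98.8 after 0, 1.5, 6, 10 and 24 h, and *Kcna2*, a voltage-gated potassium channel, 133, 152, 334, 268 and 73.1 after 0, 1.5, 6, 10 and 24 h. For these 5 genes the 24 h library was the lowest of the course.

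**Figure D2:**
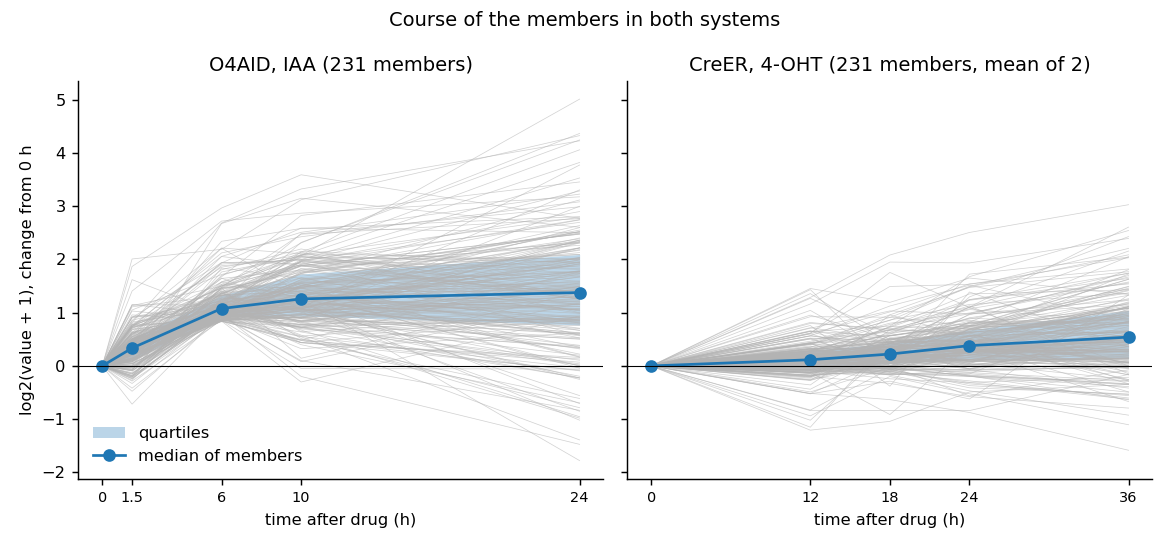
Change from 0 h in log2(value + 1) (vertical axis) against hours after IAA in O4AID (left, 1 library a time) and after 4-OHT in CreER (right, mean of 2 replicates) for all 231 genes. Grey lines are single genes, the blue line is the median and the band runs between the quartiles. The O4AID median is 1.08 at 6 h and 1.38 at 24 h, and the CreER median 0.54 at 36 h.

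CreER libraries were not used in the choice and give the test across replicates. Of the 231 genes 205 could be tested, and 26 were too low in CreER. Those that passed at an adjusted p under 0.05 were 2 higher and 1 lower at 12 h (over all 18969 genes tested, 0.258% and 0.137%), 49 higher and 4 lower at 18 h (4.73% and 3.79%), 89 higher and 7 lower at 24 h (11% and 10.6%) and 116 higher and 14 lower at 36 h (19.4% and 17.2%). The 116 and 14 genes were 50.2% and 6.06% of the 231. Over the 12436 tested genes with a count of 50 or more at 6 h in O4AID, the shares higher and lower were 0.314% and 0.185% by 12 h, 6.45% and 4.95% by 18 h, 13.6% and 13.8% by 24 h and 24.4% and 21.2% by 36 h. At an unadjusted p under 0.05 the 12 h numbers were 40 and 3. The shares of all tested genes at this unadjusted threshold were not computed, so these numbers have no comparison. The labels do not say whether the replicates came from separate cultures, so the p-values measure the spread between these samples.

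The changes in CreER were small beside those in O4AID. The genes were chosen for their rise in O4AID and not in CreER, and this choice by itself favours larger changes in O4AID. How much of the difference in size comes from the choice was not tested. The median over all 231 genes on the log2(value + 1) scale was 0.12, 0.22, 0.38 and 0.54 after 12, 18, 24 and 36 h, and the median edgeR log2 fold change over the 205 tested genes was 0.12, 0.25, 0.41 and 0.56. Both medians were within 0.02 of 0 over all genes. Both replicates lay above both 0 h replicates for 93 genes after 12 h (19.2% of the table), 123 after 18 h (24.5%), 154 after 24 h (29.1%) and 160 after 36 h (32.6%). Both lay below for 21 (19.1%), 12 (27.7%), 16 (31.6%) and 22 (34.1%). A log2 fold change of at least 1 with a passed test was found for 4, 20 and 54 genes at 18, 24 and 36 h. The share of all tested genes that met both conditions was not computed, so these counts have no comparison. Of the 49 genes higher after 18 h, 44 also passed at both later times. Of the 89 higher after 24 h, 81 passed again at 36 h, and 33 genes passed at 36 h alone. Every time was compared with the same 0 h replicates, so the calls were not independent of each other. The overlap between times over all tested genes was not computed, and the overlap seen here has no comparison. No gene was higher at one time and lower at another. The 12 and 18 h counts depended on single libraries. The 12 h count higher was 0 without 0 h replicate 2 or either 12 h replicate and 8 without 0 h replicate 1 or either 36 h replicate, and the 18 h count was 24 without CreER 0 h replicate 2, 23 without 18 h replicate 1 and 32 without 18 h replicate 2, and the 24 h count was 59 with DESeq2, which gave no adjusted p for 10 of the 89.

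**Figure D3:**
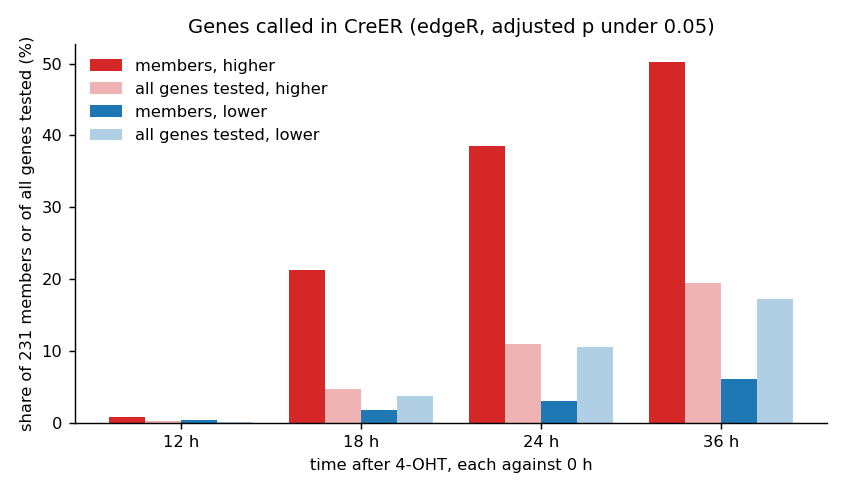
Share (%) of the 231 genes, and of all 18969 genes tested, that passed the edgeR test (adjusted p under 0.05) as higher (red) or lower (blue) at 12, 18, 24 and 36 h after 4-OHT against 0 h. Full colour is the 231 genes and pale colour all genes. At 36 h the shares higher are 50.2% and 19.4%, and the shares lower 6.06% and 17.2%.

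The first genes to pass in CreER were *Gprc5c*, *Tubb3* and *Pla2g1b* at 12 h. *Gprc5c*, an orphan receptor, had normalised counts of 1183 and 1167 at 0 h, 1456 and 1402 at 12 h, 1932 and 1859 at 18 h, 2382 and 2570.5 at 24 h, and 3438 and 3489.9 at 36 h, and rose at each time up to 36 h (log2 fold change 1.58 ± 0.05 (SE), adjusted p = 1.5e-18). *Tubb3* had 4768 and 4714 at 0 h, 5627 and 5517 at 12 h, 5773 and 5646 at 18 h, 5977 and 6134 at 24 h, and 6499 and 7193 at 36 h, a rise from a higher level than in O4AID (log2 fold change 0.55 ± 0.04 (SE), adjusted p = 9.2e-11). *Pla2g1b*, the pancreatic phospholipase A2, was the one that fell, with 386 and 370.0 at 0 h, 245 and 284 at 12 h, 237 and 249 at 18 h, 222 and 190.4 at 24 h, and 123 and 127 at 36 h (log2 fold change -1.57 ± 0.13 (SE), adjusted p = 7.8e-11). At 18 h the largest rises were those of *Sstr2*, *Kif19a*, *Aatk* and *Trim47*, the ones at a log2 fold change of 1 or more. *Kif19a*, a kinesin of motile cilia, went from 19.5 and 20.9 at 0 h to 57.8 and 59.7 at 18 h and 80.9 and 91.0 at 36 h, and *Trim47*, a TRIM-family ubiquitin ligase, from 95.1 and 117 to 216 and 212 and 369 and 381.

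The 5 largest rises at 36 h were *Sstr2*, *Fxyd2*, *S100a13*, *Gata6* and *Rab3il1*. *Sstr2*, a somatostatin receptor, went from 9.12 and 2.20 (0 h) to 48.8 and 42.4 (36 h) (log2 fold change 3.08 ± 0.43 (SE), adjusted p = 1.8e-06), a log2 fold change of 4.31 without 0 h replicate 1 and 2.33 without 0 h replicate 2, both of which passed. Its O4AID counts were 52.4, 93.5, 112, 87.0 and 44.5 in order of time. *Fxyd2*, the gamma subunit of the sodium pump, went from 3.91 and 1.10 (0 h) to 15.4 and 17.3 (36 h) (log2 fold change 2.71 ± 0.71 (SE), adjusted p = 0.0034), counts of a few reads at 0 h, and its log2 fold change became 3.73 without 0 h replicate 1. The call was lost without 0 h replicate 2 (2.03), and DESeq2 gave no adjusted p for it or for *Nags*. *S100a13*, a calcium-binding protein of unconventional secretion, went from 104 and 119 (0 h) to 744 and 629 (36 h) (log2 fold change 2.64 ± 0.12 (SE), adjusted p = 1.0e-15), with most of the rise after 24 h, when the replicates were at 256 and 226. In O4AID it was highest at 6 h, at 2411, and 1539.9 at 24 h. *Rab3il1*, a Rab exchange factor, went from 168 and 189 (0 h) to 834 and 822 (36 h) (log2 fold change 2.22 ± 0.09 (SE), adjusted p = 2.3e-16) and in O4AID from 106 at 0 h to 438 at 24 h. Both 36 h replicates lay above both 0 h replicates in each of these genes. The pick of these 5 required this and an adjusted p under 0.05.

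The 14 genes that fell at 36 h were *Pla2g1b*, *Slc39a14*, *Trim2*, *Sema7a*, *Rragb*, *Txnip*, *Epdr1*, *Csrnp3*, *Cacna2d1*, *Aff3*, *Lin28a*, *Gramd3*, *Efr3b* and *Frem2*. *Slc39a14*, a zinc and manganese importer, had 4970.2 and 4984 at 0 h, 5058 and 4959 at 12 h, 4415 and 4418 at 18 h, 3560.1 and 3638 at 24 h, and 2586 and 2655 at 36 h in CreER (log2 fold change -0.91 ± 0.04 (SE), adjusted p = 1.4e-15), and 61.4, 84.7, 112, 121 and 309 in the O4AID libraries in order of time. *Trim2*, a neuronal ubiquitin ligase, went from 2525 and 2597 (0 h) to 1538 and 1422 (36 h) (log2 fold change -0.77 ± 0.06 (SE), adjusted p = 9.8e-12), against 347, 399.9, 696, 789 and 633 in O4AID. *Rragb*, a Rag GTPase of mTORC1 signalling, went from 823 and 708 (0 h) to 498 and 491 (36 h) (log2 fold change -0.61 ± 0.08 (SE), adjusted p = 8.1e-07), against 50.3, 74.4, 110.0, 115 and 196 in O4AID. *Sema7a*, a membrane-anchored semaphorin, went from 70.3 and 95.8 (0 h) to 56.5 and 48.6 (36 h) (log2 fold change -0.64 ± 0.21 (SE), adjusted p = 0.018), a call lost without 0 h replicate 2 (-0.39) or 36 h replicate 2 (-0.55) and with DESeq2, and in O4AID it was 97.3 at 6 h and 28.5 at 24 h. *Txnip* had 2921 and 2792 at 0 h, 2847 and 2905 at 12 h, 2539 and 2661 at 18 h, 2296 and 2406 at 24 h, and 1789.5 and 1977 at 36 h (log2 fold change -0.58 ± 0.05 (SE), adjusted p = 8.4e-10) while O4AID cells went up to 26859.8. For 10 of the 14 both CreER 0 h replicates were above the O4AID 6 h value.

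The 2 lines did not start from the same place. Both CreER 0 h replicates were below the O4AID 0 h library for 108 genes, between its 0 h and 6 h values for 45, and above its 6 h value for 60. *Hoxc4* (255 in O4AID at 0 h and at most 5.63 in CreER), *Osm* (309, at most 9.37) and *Cidea* (1587, at most 78.4) were far higher in O4AID, and 18 genes were under 10 reads in every CreER library. *Lin28a* (19002 and 20439 in CreER at 0 h against 77.5), *Dusp4* (2146 and 2070.0 against 55.8) and *Kif1a* (1237 and 1201 against 44.0) were far higher in CreER. Of the 108 genes that started below, 82 could be tested in CreER, and 46 of them (56.1%) were higher and 2 lower at 36 h. All 45 in between were tested, with 28 (62.2%) higher and 2 lower, as were the 60 that started above, with 30 (50%) higher and 10 lower. The lines differ in strain, in the ERK-response genes given above and in the way Oct4 was removed, and may differ in medium, and these cannot be told apart.

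The O4AID course and the CreER test were also set side by side. Of the 166 genes still at 1.8 times 0 h or more at 24 h in O4AID, 152 were tested in CreER, and 94 were higher and 11 lower at 36 h. Of the 41 above 0 h by less, 33 were tested, with 17 higher and 1 lower, and of the 24 below 0 h at 24 h, 20 were tested, with 5 higher and 2 lower. These 5 were *Tubb3*, *Edn1*, *Chst2*, *Sstr2* and *Rgcc*. *Rgcc*, a regulator of the cell cycle and of cyclin-dependent kinase 1, had 51.7, 59.7, 149.6, 133 and 51.5 after 0, 1.5, 6, 10 and 24 h in O4AID and 71.6 and 48.4 at 0 h, 98.6 and 65.6 at 12 h, 121 and 95.7 at 18 h, 182 and 153 at 24 h, and 258 and 249.5 at 36 h in CreER (log2 fold change 2.12 ± 0.18 (SE), adjusted p = 5.5e-10). By the O4AID library that was highest, the genes higher in CreER at 36 h were 65 of 104 tested for 24 h, 32 of 52 for 10 h and 18 of 47 for 6 h. No test of these differences was made.

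**Figure D4:**
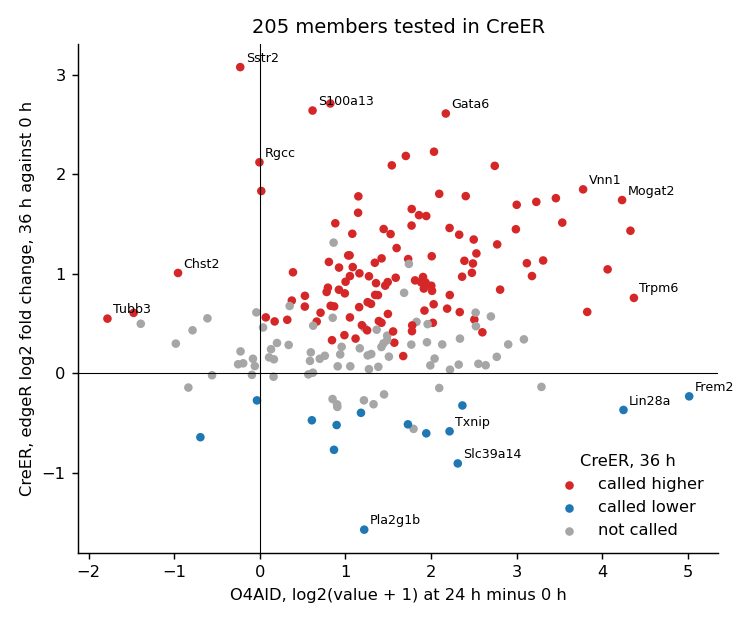
Change in O4AID at 24 h (horizontal, log2(value + 1) against 0 h, 1 library each) and edgeR log2 fold change in CreER at 36 h (vertical, 2 against 2 libraries) for the 205 genes tested in CreER. Red points passed as higher, blue as lower and grey did not pass. Most points lie in the upper right, *Sstr2* and *Tubb3* are higher in CreER but below 0 h in O4AID, and *Slc39a14* and *Txnip* are the reverse.

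The class counts that follow stand beside shares of 10.1% of all genes at 1.8 times 0 h at 24 h in O4AID, and of 19.4% higher and 17.2% lower among all genes tested in CreER at 36 h. Over the 231 genes themselves these shares were 71.9% at 24 h, and 56.6% higher and 6.83% lower of the 205 tested, and no class was tested for a difference from the others. Among the ligands and other secreted signals, 17 genes, the 6 h ratio ran from 1.82 to 3.88, 11 were at 1.8 times 0 h at 24 h, and in CreER 12 of 16 tested were higher and 1 lower at 36 h. *Kitl*, the ligand of the receptor Kit, had the largest ratio, with O4AID counts of 47.5, 70.0, 184, 291 and 274 after 0, 1.5, 6, 10 and 24 h, and rose in CreER from 643 and 657 (0 h) to 967 and 894 (36 h) (log2 fold change 0.54 ± 0.07 (SE), adjusted p = 8.6e-07). *Wnt6* had 71.9, 75.9, 169, 407 and 578 after 0, 1.5, 6, 10 and 24 h in O4AID and went from 82.1 and 94.7 (0 h) to 207 and 276 (36 h) in CreER (log2 fold change 1.45 ± 0.16 (SE), adjusted p = 3.0e-08), whereas the 36 h change of *Wnt11* in CreER was -0.31 ± 0.37 and did not pass. *Efnb3*, an ephrin, had 263, 368, 546, 754 and 1326 in order of time in O4AID and was higher in CreER from 18 h on (log2 fold change 0.87 ± 0.13 (SE), adjusted p = 3.2e-05). *Csf1*, the macrophage growth factor, and *Chga*, a protein of secretory granules, rose in CreER by 0.78 ± 0.12 and 1.13 ± 0.11 on the log2 scale. *Osm*, a cytokine of the LIF family, had 309, 500.1, 564, 634 and 310.3 in O4AID, again with the 24 h library back at the 0 h level.

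The 18 receptors had ratios from 1.84 to 4.48, and 13 were at 1.8 times 0 h at 24 h. In CreER all 18 were tested, and 9 were higher and 0 lower at 36 h. *Fgfr2*, a fibroblast growth factor receptor, went from 1157 and 1181 (0 h) to 2589.9 and 2657 (36 h) in CreER (log2 fold change 1.18 ± 0.05 (SE), adjusted p = 4.5e-16) and had 209, 215, 384, 599.9 and 433 in O4AID. *Nfam1*, an immune receptor with an activation motif, went from 111 and 67.2 (0 h) to 248 and 221 (36 h) (log2 fold change 1.45 ± 0.17 (SE), adjusted p = 1.2e-07). *Stra6*, the receptor for retinol-binding protein, had 25.8, 27.3, 86.3, 118 and 102 in O4AID and rose in CreER (log2 fold change 0.91 ± 0.36 (SE), adjusted p = 0.046). *Procr*, the protein C receptor, rose as well (0.61 ± 0.19), and *Lpar6*, a lysophosphatidic acid receptor, rose by 0.31 ± 0.07 from counts of 1085 and 1269.5.

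Intracellular signalling proteins and their inhibitors made the largest class, 27 genes, of which 19 were at 1.8 times 0 h at 24 h in O4AID and, of 26 tested, 13 rose and 2 fell in CreER at 36 h. *Plk3*, a stress-responsive polo kinase, had 713, 1194, 1975, 2093 and 804 after 0, 1.5, 6, 10 and 24 h, again a course that came down by 24 h, and rose in CreER from 1655 and 1347 (0 h) to 2057 and 2181 (36 h) (log2 fold change 0.52 ± 0.08 (SE), adjusted p = 2.7e-05). *Gab2*, a docking protein downstream of receptor kinases, had 40.5, 47.1, 87.8, 182 and 692 in O4AID and went from 49.5 and 59.5 (0 h) to 110.5 and 113 (36 h) in CreER (log2 fold change 1.04 ± 0.19 (SE), adjusted p = 7.0e-05). *Adap2*, a regulator of the GTPase Arf6, had 324, 415, 599, 674 and 719 in O4AID and rose in CreER from 18 h (log2 fold change 0.83 ± 0.14 (SE), adjusted p = 0.00036). *Rragd*, a Rag GTPase like *Rragb*, went from 863 at 0 h to 5375 at 24 h in O4AID, with a CreER change at 36 h of 0.08 ± 0.05 that did not pass.

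The 25 transcription factors and nuclear regulators had ratios up to 4.19. Of these, 20 were at 1.8 times 0 h at 24 h, and 11 of 21 tested rose and 2 fell in CreER at 36 h. *Zfp703*, a repressor of the NET family, had 107, 181, 448, 614 and 1009.7 after 0, 1.5, 6, 10 and 24 h in O4AID and went from 15.6 and 14.3 (0 h) to 41.1 and 58.1 (36 h) in CreER (log2 fold change 1.72 ± 0.32 (SE), adjusted p = 8.8e-05). *Msx2*, a homeobox gene and BMP target, had 51.7, 113, 131, 152 and 179 in O4AID and 129 and 135 at 0 h, 138 and 123 at 12 h, 173 and 180.2 at 18 h, 218 and 203 at 24 h, and 358 and 373 at 36 h in CreER (log2 fold change 1.48 ± 0.12 (SE), adjusted p = 7.6e-11). *Kctd15*, an inhibitor of AP-2 factors, rose in CreER by 1.26 ± 0.06 from 772 and 683. *Ets1* rose by 0.85 ± 0.09 from 435 and 394, against 32.1, 28.0, 63.3, 76.5 and 124 in O4AID. *Ahr*, which encodes the aryl hydrocarbon receptor itself and passed the rule, had 343, 488, 765, 1031 and 978 after 0, 1.5, 6, 10 and 24 h in O4AID, and its CreER change at 36 h was 0.17 ± 0.08 and did not pass. *Hoxc4*, *Hoxc8*, *Tbx5* and *Zfp503* were too low in CreER to be tested. The RNA-binding genes were *Rbm24*, *Zfp36l3* and *Lin28a*, and *Zfp36l3*, a placental relative of tristetraprolin, had 60.7, 76.6, 196, 437 and 677 after 0, 1.5, 6, 10 and 24 h in O4AID and went from 75.5 and 72.7 (0 h) to 243 and 253 (36 h) in CreER (log2 fold change 1.76 ± 0.15 (SE), adjusted p = 2.1e-10).

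The class of 11 genes that act on glutathione, oxidants or metals had 10 at 1.8 times 0 h at 24 h. *Gss*, glutathione synthetase, had 2790.3, 3087, 6038, 6819 and 5293 after 0, 1.5, 6, 10 and 24 h in O4AID, with 6, 10 and 24 h all well above the first 2 libraries. In CreER *Gss* went from 681 and 652 (0 h) to 1211 and 1135 (36 h) (log2 fold change 0.84 ± 0.07 (SE), adjusted p = 8.1e-11). *Mt1*, the metal-binding metallothionein 1, had 4841, 6553, 8837, 9038 and 15455 after 0, 1.5, 6, 10 and 24 h in O4AID and rose little in CreER, from 6261 and 5935 (0 h) to 6382 and 7187 (36 h) (log2 fold change 0.17 ± 0.05 (SE), adjusted p = 0.0053), a call lost without 0 h replicate 2 (0.13), without 36 h replicate 2 (0.09) or with total-count scaling. *Vnn1*, a pantetheinase, had 80.3, 85.4, 177, 172 and 1112 after 0, 1.5, 6, 10 and 24 h, almost flat from 6 to 10 h and then 6.48 times higher at 24 h (95% interval 5.62 to 7.52), and went from 50.8 and 39.6 (0 h) to 144 and 177 (36 h) in CreER (log2 fold change 1.85 ± 0.20 (SE), adjusted p = 3.5e-08). *Slc11a1*, a metal transporter of phagosomes, rose in CreER from 24.7 and 29.7 at 0 h to 50.3 and 57.4 at 18 h (log2 fold change 0.98 ± 0.24 (SE), adjusted p = 0.011) and 91.2 and 98.9 at 36 h. *Gpx2*, a glutathione peroxidase, was 685 at 6 h against 309 at 0 h in O4AID, and its CreER change at 36 h was -0.26 ± 0.17, which did not pass. In all, 6 of 10 tested rose and 1, *Slc39a14*, fell in CreER at 36 h.

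Of 19 genes for lipid, sugar and other metabolism, 11 were at 1.8 times 0 h at 24 h in O4AID, and 10 of 15 tested rose and 1 fell in CreER at 36 h. *Hpse*, heparanase, had 466, 499, 1324, 1909.9 and 1878 after 0, 1.5, 6, 10 and 24 h in O4AID and only 9.12 and 12.1 (0 h) to 18.0 and 31.4 (36 h) in CreER (log2 fold change 1.17 ± 0.45 (SE), adjusted p = 0.042). *Acot11*, an acyl-CoA thioesterase, had 371, 394, 761, 1130.5 and 1500.2 in O4AID and went from 79.4 and 96.9 (0 h) to 152 and 160.1 (36 h) in CreER (log2 fold change 0.83 ± 0.16 (SE), adjusted p = 0.00017). *Ptgs2*, cyclooxygenase 2, had 51.7, 89.1, 93.4, 72.5 and 54.3 after 0, 1.5, 6, 10 and 24 h, a low and short course, and rose in CreER from 198 and 204 (0 h) to 267 and 322 (36 h) (log2 fold change 0.56 ± 0.12 (SE), adjusted p = 0.00055).

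*Slc2a1*, the glucose transporter GLUT1, had the most reads at 6 h of the 231 genes. Its O4AID counts were 5948, 5877, 11853, 12612 and 7428 after 0, 1.5, 6, 10 and 24 h, with 6 and 10 h together at about the same level and 24 h between them and 0 h. In CreER it had 20214 and 18051 at 0 h, 19931 and 19593 at 12 h, 23062 and 22870.3 at 18 h, 23333 and 23043 at 24 h, and 26222 and 28561 at 36 h (log2 fold change 0.54 ± 0.05 (SE), adjusted p = 5.5e-10). Over the 15 channels and transporters 8 were at 1.8 times 0 h at 24 h, and 7 of 12 tested rose and 1 fell in CreER at 36 h. *Trpm6*, a magnesium channel, had 20.9, 47.1, 60.9, 108 and 452 after 0, 1.5, 6, 10 and 24 h in O4AID and went from 23.4 and 34.1 (0 h) to 48.8 and 48.6 (36 h) in CreER (log2 fold change 0.76 ± 0.27 (SE), adjusted p = 0.028). *Slc24a5*, a potassium-dependent exchanger of sodium and calcium, was 1008 at 6 h and 1069 at 24 h in O4AID against 458 at 0 h, and did not pass in CreER (0.45 ± 0.23).

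Of the 15 matrix, protease, adhesion and junction genes 14 were at 1.8 times 0 h at 24 h in O4AID, and 12 rose and 1 fell of 15 tested in CreER at 36 h. *Tinagl1*, a matricellular protein, had 1534, 1824, 3496, 4346 and 5002 after 0, 1.5, 6, 10 and 24 h in O4AID and 362 and 309 at 0 h, 435 and 422 at 12 h, 618 and 535 at 18 h, 710.3 and 725 at 24 h, and 1475 and 1522 at 36 h in CreER (log2 fold change 2.18 ± 0.08 (SE), adjusted p = 1.1e-17). *Mmp15*, a membrane-type metalloproteinase, had 245, 216, 584, 819.7 and 2136 in O4AID and went from 332 and 352 (0 h) to 707 and 752 (36 h) in CreER (log2 fold change 1.10 ± 0.09 (SE), adjusted p = 1.3e-10). *Itga1*, the integrin subunit of collagen receptors, went from 72.6 at 0 h to 415 at 24 h in O4AID and from 563 and 607 (0 h) to 1431 and 1505 (36 h) in CreER (log2 fold change 1.34 ± 0.07 (SE), adjusted p = 5.4e-15). *Prss8*, a membrane serine protease of epithelia, rose in CreER from 744 and 709 (0 h) to 1429 and 1656 (36 h) (log2 fold change 1.10 ± 0.07 (SE), adjusted p = 1.4e-12). *Timp3*, an inhibitor of metalloproteinases, had 27.9, 58.9, 94.2, 121 and 408 in O4AID and rose in CreER by 0.62 ± 0.10. *Cldn6*, a claudin of embryonic epithelia and the single gene here from a list of 20 tight junction and polarity genes, had 211, 282, 389, 497 and 1282 in O4AID and went from 3295 and 3000.4 (0 h) to 3989 and 4268 (36 h) in CreER (log2 fold change 0.41 ± 0.05 (SE), adjusted p = 1.2e-07).

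The 13 cytoskeleton, motor and cilia genes included 11 at 1.8 times 0 h at 24 h, and 7 rose and 0 fell of 13 tested in CreER at 36 h. *Myh7b*, a myosin heavy chain whose intron carries a microRNA, had 728, 869.8, 1838, 3015 and 2819.6 after 0, 1.5, 6, 10 and 24 h in O4AID, and its CreER change was 0.31 ± 0.16 and did not pass. *Pdlim4*, an actin-associated PDZ-LIM protein, had 82.4, 106, 259.6, 289 and 557 in O4AID and went from 58.6 and 39.6 (0 h) to 197 and 210.3 (36 h) in CreER (log2 fold change 2.08 ± 0.18 (SE), adjusted p = 4.2e-10). *Dnai4*, a dynein chain of cilia, rose in CreER (0.93 ± 0.25). The last class joined oligoadenylate synthetase, TRIM and ubiquitin genes, 11 in all, of which 9 were at 1.8 times 0 h at 24 h, and 5 of 9 tested rose and 1 fell in CreER at 36 h. *Oasl2*, an interferon-induced gene, had 127, 144, 298, 500.0 and 1250.4 after 0, 1.5, 6, 10 and 24 h in O4AID, and in CreER it passed as higher at 24 h (0.52 ± 0.13) and not at 36 h (-0.14 ± 0.14). *Oas1h*, *Oasl1*, *Pcdhga8*, *Tex19.2*, *Plscr2* and the Gm genes have close copies, and *Notumos* lies antisense to *Notum*, so the reads counted for them are uncertain.

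**Figure D5:**
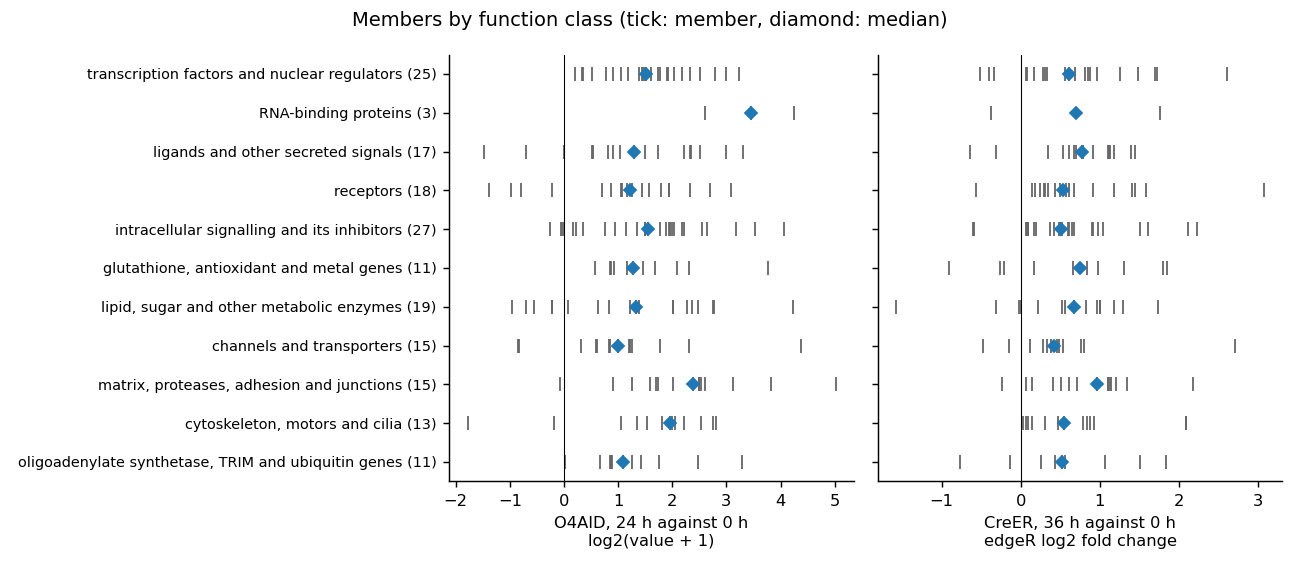
Change of each gene in O4AID at 24 h (left, log2(value + 1) against 0 h) and in CreER at 36 h (right, edgeR log2 fold change, tested genes only) by function class, with the number of genes in brackets. Ticks are genes and diamonds medians, and the line marks no change. The matrix class has 14 of 15 genes at 1.8 times 0 h or more on the left.

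The 19 lists of genes chosen for this tissue and treatment include the genes that the rule leaves out by name, a list that could hold none. Of the 19, 6 held at least 2 of the 231 genes. Their counts stand beside 1.84% of all genes past the 6 h ratio and 1.82% past its reverse, the former being the contrast of the rule, and beside 19.4% higher and 17.2% lower in CreER at 36 h. The primitive endoderm list held most, 4 of 18, namely *Gata6*, *Pdgfra*, *Dab2* and *Plat*, with 13 of the list at a count of 50 or more at 0 or 6 h, and 1, the laminin gene *Lama1* (7986 at 0 h, 4414 at 6 h), at 1/1.8 or less. *Gata6*, the transcription factor that drives primitive endoderm, had 149, 149, 292, 417 and 674 after 0, 1.5, 6, 10 and 24 h in O4AID and 28.7 and 23.1 at 0 h, 40.3 and 41.5 at 12 h, 49.0 and 39.4 at 18 h, 85.8 and 83.4 at 24 h, and 158 and 152 at 36 h in CreER, where it rose at 24 h (log2 fold change 1.73 ± 0.23 (SE), adjusted p = 1.9e-06) and 36 h (log2 fold change 2.61 ± 0.21 (SE), adjusted p = 6.9e-11). *Pdgfra*, the receptor that marks this lineage, had 37.0, 56.0, 145, 149 and 246 after 0, 1.5, 6, 10 and 24 h in O4AID, and its CreER values of 40.4 and 50.6 (0 h) to 59.1 and 76.9 (36 h) did not pass (0.57 ± 0.25). *Dab2*, an endocytic adaptor, had 32.1, 44.2, 74.4, 131 and 382 after 0, 1.5, 6, 10 and 24 h in O4AID and went from 333 and 285 (0 h) to 875 and 858 (36 h) in CreER (log2 fold change 1.51 ± 0.08 (SE), adjusted p = 5.0e-14). *Plat*, tissue plasminogen activator, had 36.3, 59.7, 102, 102 and 214 in O4AID and went from 80.8 and 69.4 (0 h) to 161 and 180.5 (36 h) in CreER (log2 fold change 1.20 ± 0.17 (SE), adjusted p = 1.6e-06). Of the 14 genes of this list tested in CreER, 9 were higher and 2 lower at 36 h. The primitive endoderm markers, of which *Gata6* and *Pdgfra* are part, summed to 284 and 1028 after 0 and 24 h in O4AID. In CreER they summed to between 178 and 197 at 0 h and 308 and 320.1 at 36 h. In both systems nearly all of the rise was that of *Gata6* and *Pdgfra*. The other markers together changed little in O4AID and were not higher in CreER. Both genes were selected for their rise in O4AID, so the O4AID sum partly restates the rule.

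The NRF2 list, genes of the antioxidant response, held *Srxn1*, *Slc7a11* and *Osgin1*, 3 of 16 at a count of 50 or more, and no other gene of it was at 1.8 times 0 h at 6 h in either direction. *Srxn1*, which reduces oxidised peroxiredoxins and is printed above with its AP-1 letters, had 2670.2, 2896, 6058, 4999 and 5968 after 0, 1.5, 6, 10 and 24 h in O4AID, and stayed near the 6 h level. In CreER it had 1043 and 1059 at 0 h, 1269.7 and 1224 at 12 h, 1285 and 1383 at 18 h, 1390.3 and 1435 at 24 h, and 1599 and 1692 at 36 h (log2 fold change 0.66 ± 0.06 (SE), adjusted p = 6.3e-10). *Slc7a11*, the cystine importer that feeds glutathione synthesis, had 115, 148, 347, 491 and 317 after 0, 1.5, 6, 10 and 24 h in O4AID and did not pass in CreER (-0.21 ± 0.30). *Osgin1*, a growth inhibitor induced by oxidative stress, had 55.8, 70.7, 145, 114 and 102 in O4AID and passed in CreER at 24 h (log2 fold change 1.55 ± 0.51 (SE), adjusted p = 0.029) but not at 36 h (log2 fold change 1.31 ± 0.55 (SE), adjusted p = 0.066), from counts of at most 19.9 in any CreER library. Without 0 h replicate 2 its 36 h change was 2.46 and passed. Of the 16 genes tested in CreER 3 were higher and 3 lower at 36 h, close to the shares over all genes tested (19.4% and 17.2%).

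The immediate early list, genes that respond to growth factors and stress without new protein synthesis, held *Fos* and *Jun* out of 16 at a count of 50 or more. *Fos* had 53.1, 87.6, 121, 109.5 and 91.9 after 0, 1.5, 6, 10 and 24 h in O4AID and 79.4 and 57.3 at 0 h, 96.4 and 62.9 at 12 h, 79.2 and 81.1 at 18 h, 113 and 105 at 24 h, and 108 and 129 at 36 h in CreER, where it rose at 24 h (0.70 ± 0.20) and 36 h (log2 fold change 0.82 ± 0.20 (SE), adjusted p = 0.0021), the latter lost without 0 h replicate 2 (0.58). *Jun* had 136, 185, 285, 324 and 513 after 0, 1.5, 6, 10 and 24 h in O4AID, each library above the one before, and 396 and 402 at 0 h, 453 and 445 at 12 h, 533 and 459.5 at 18 h, 598 and 635 at 24 h, and 750.2 and 791 at 36 h in CreER, where it rose from 18 h (log2 fold change 0.97 ± 0.08 (SE), adjusted p = 3.1e-10). Of 20 genes of the list tested in CreER, 11 were higher and 3 lower at 36 h. *Dusp4*, a phosphatase that ends ERK signalling and the single gene here from an ERK list of 17, had 55.8, 45.7, 102, 53.9 and 53.6 in order of time in O4AID, with 6 h alone above the rest, and in CreER it rose at 18 h (0.24 ± 0.05) and 24 h (0.30 ± 0.05) but not at 36 h (0.07 ± 0.05). Of the 14 ERK-list genes with a count of 50 or more at 0 or 6 h, *Spry2*, a relative of *Spry4* (1866 at 0 h, 550.0 at 6 h), and *Dusp6* (242 and 112) were at 1/1.8 or less at 6 h in O4AID, and of the 17 tested in CreER 4 were higher and 7 lower at 36 h.

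The Wnt list held *Axin2* and *Sp5* out of 10 at a count of 50 or more, while *Cdx1*, a homeobox gene of the same list, was at 1/1.8 or less (3293 at 0 h, 1532 at 6 h). *Axin2*, the feedback inhibitor induced by beta-catenin, had 1285, 1816, 2505, 3035 and 4414 after 0, 1.5, 6, 10 and 24 h in O4AID, and *Sp5*, a repressor induced by the same pathway, 397, 537, 748, 953 and 1113 after 0, 1.5, 6, 10 and 24 h, both with every library above the one before. In CreER *Axin2* went from 451 and 372 (0 h) to 594 and 529 (36 h) (log2 fold change 0.48 ± 0.10 (SE), adjusted p = 0.00037), while *Sp5*, at 24.7 and 19.8 (0 h) to 33.4 and 20.4 (36 h), did not pass (0.33 ± 0.34). Of the 11 genes of this list tested in CreER, 3 were higher and 4 lower at 36 h. *Id4*, a helix-loop-helix inhibitor from the list of TGF-beta, BMP and SMAD target genes, had 122, 169, 252, 329 and 339 in O4AID and rose in CreER at 36 h (log2 fold change 0.88 ± 0.20 (SE), adjusted p = 0.00077). In the same list *Lefty1*, a Nodal inhibitor, was at 1/1.8 or less at 6 h (58.6 at 0 h, 11.9 at 6 h), and of the 15 genes tested in CreER, 6 were higher and 6 lower at 36 h.

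The hypoxia list held *Egln3* and *Slc2a1* out of 11. *Egln3*, a prolyl hydroxylase that is both a regulator and a target of HIF, had 178, 141, 352, 392 and 317 after 0, 1.5, 6, 10 and 24 h in O4AID and went from 287 and 330.3 (0 h) to 493 and 483 (36 h) in CreER (log2 fold change 0.68 ± 0.10 (SE), adjusted p = 2.6e-06). The other 9 genes of that list with enough reads were not at 1.8 times 0 h in either direction at 6 h, and in CreER 4 of the 11 were higher and 3 lower at 36 h. *Gata2*, the single gene here from 24 trophectoderm and trophoblast genes, had 27.2, 56.7, 50.6, 54.8 and 225 after 0, 1.5, 6, 10 and 24 h in O4AID, so that its largest step came after 10 h, and 182 and 186 at 0 h, 251 and 202 at 12 h, 291 and 299.6 at 18 h, 368 and 362 at 24 h, and 533 and 649.7 at 36 h in CreER (log2 fold change 1.69 ± 0.11 (SE), adjusted p = 1.7e-12). The summed trophectoderm markers were 350.4, 477 and 782 after 0, 6 and 24 h in O4AID, and between 1086 and 1249 at 0 h against 4410 to 4490 at 36 h in CreER. These markers include *Krt7*, which the rule leaves out by name together with the aryl hydrocarbon receptor battery. None of the 22 naive pluripotency genes was among the 231, and 14 of them were at 1/1.8 of 0 h or less at 6 h. Lists of p53, YAP and TEAD, SRF, formative epiblast and 2-cell-like genes held none either, while those of ATF4, cell cycle and ligand genes held *Slc7a11*, *Gadd45g* and *Edn1*, and the part of the trophectoderm, primitive endoderm and naive markers in the other values was not tested.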

How the data were processed

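RNA-seq gene counts of 10 CreER and 5 O4AID libraries were used as deposited. The authors trimmed reads with Trim Galore 0.1.4, aligned them with TopHat2 2.1.0 to GRCm38 and counted reads per gene with featureCounts 1.5.1 on Ensembl gene models, and the strand setting of the counting is not given in the sources used here. The authors also deposited a table of TMM-scaled values, a signal in which 1 read is worth a fixed amount in each library and which is not divided by length. The genes were selected on this table, and members and lists were chosen with earlier results of these data known. Function classes were assigned from textbook knowledge after the genes were known and carry no test.

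CreER counts were fitted with edgeR 4.0.16 (R 4.3.3; quasi-likelihood test, robust, TMM, filterByExpr, all 10 libraries in 1 fit), each time against 0 h, with Benjamini-Hochberg adjustment over 18969 genes and a threshold of 0.05. On simulated counts for 36 h against 0 h over 18670 genes, 80.5% of genes changed 2-fold were recovered. O4AID has 1 library per time and no test. Its changes are on the log2(value + 1) scale, and ratio intervals (exact, 95%) come from reads and cover counting error only. Values are given in full for the 10 largest 6 h ratios, the 5 highest 6 h counts and every gene in one of 19 lists. They are also given for the 5 largest CreER rises and falls at 36 h. These were taken among genes with an adjusted p under 0.05 and both 36 h replicates beyond both 0 h replicates. Other genes were picked to illustrate their class after their values were seen. Replicate numbers did not pair CreER libraries (correlations of deviations between -0.021 and 0.050 over 10 pairs). Replicates of a time differed by more than sampling noise (chi-square per degree of freedom 3.02 to 7.00). Alternatives were other scalings, filters, pseudocounts, reference libraries and thresholds, DESeq2 1.42.0, a replicate block and leaving out each library. Results for some of these genes are not reported here. Promoter sequences are from RefSeq on GRCm38.p6.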

Additional observations from a re-analysis of the deposited data

Results flagged for a closer look

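7 genes moved in opposite directions in the 2 systems at 24 h, at least 1.8 times higher than 0 h in the O4AID library and lower in CreER at an adjusted p under 0.05 (edgeR). The CreER log2 fold changes at 24 h were -0.85 for *Pla2g1b*, -0.57 for *Trim2*, -0.46 for *Slc39a14*, -0.36 for *Csrnp3*, -0.30 for *Rragb*, -0.27 for *Txnip* and -0.19 for *Lin28a*. The difference between the systems was not tested, since O4AID has 1 library a time, and its 0 h library was also used to select the genes.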

How the results depend on the processing

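Of 228 values over the whole set recomputed under the alternatives, 185 stayed close to those reported and 43 moved, and of 638 for the 38 named genes tested in CreER, 621 kept their direction and call, 11 lost the call, 1 gained it and 5 changed sign, all 5 in genes that did not pass. The cause was not tested. The 12 h counts of 2 higher and 1 lower became 0 higher with total-count scaling, 10 higher and 2 lower without a filter, 1 higher and 0 lower with only the 4 libraries compared, and 0 lower with DESeq2. DESeq2 gave 59 in place of 89 higher at 24 h and 90 in place of 116 at 36 h, with no adjusted p for 10 of the 89 and 4 of the 116. The median edgeR log2 fold changes over the tested genes in CreER, 0.12, 0.25, 0.41 and 0.56 at 12, 18, 24 and 36 h, became 0.083, 0.44 and 0.48 at 12, 24 and 36 h with total-count scaling, and 0.37 at 24 h with at least 10 counts in every library. The O4AID median at 6 h was 1.03 with a pseudocount of 5, 1.14 with total-count scaling and 0.83 against 1.5 h, and against 1.5 h it was 0.96 at 10 h and 1.06 at 24 h. The rule gave 517 genes with a ratio of 1.5, 394 with a count of 20 and 144 with a count of 100. Without 1 library at a time, higher and lower counts ranged from 0 to 8 and 0 to 2 at 12 h, 23 to 50 and 2 to 5 at 18 h, 62 to 89 and 6 to 7 at 24 h, and 98 to 116 and 11 to 14 at 36 h, with edgeR medians of 0.10 to 0.15, 0.20 to 0.27, 0.36 to 0.42 and 0.57 to 0.60. The lower count at 18 h was 2 without either 18 h replicate. At 36 h *Dusp4* was -0.014 with total-count scaling, and without 1 library *Dusp4* ranged from -0.00172 to 0.14, *Sp5* from -0.10 to 0.62 and *Slc7a11* from -0.67 to 0.19. With the replicate block the counts were 2 and 1, 49 and 5, 89 and 7, and 115 and 14, with no call of a named gene changed.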
